A study of Mus musculus with 8 samples.

Results

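The plasminogen activator system of 4T1 cells was followed through 6 genes of the deposited table of 24787 rows. They were the urokinase gene Plau, its receptor gene Plaur, the tissue-type activator gene Plat, the serpin genes Serpine2 and Serpinb2, and the annexin gene Anxa2. The genes were chosen by symbol, with earlier results of these data known, and all 6 had a row. 4T1 is a mouse mammary carcinoma line, and its RNA was sequenced in 8 libraries from cultured cells. Of these, 4 carried an shRNA against Etv5, labelled as Etv5 knockdown, and 4 a control shRNA, labelled WT. Etv5 encodes an ETS-family transcription factor, and the series asks how tumour-made ETV5 bears on myeloid-derived suppressor cells and on resistance to checkpoint inhibitors. The library names give one construct, sh2, for every Etv5 shRNA library and one, NT, for every control, so each group appears to rest on a single hairpin. Nothing in the labels says whether replicates were separate cultures, so p-values measure the spread between these libraries, which may be technical.

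Urokinase and tissue-type activator are serine proteases that cut plasminogen into plasmin, a broad protease that digests fibrin and matrix proteins and activates several latent metalloproteases. Urokinase works at the cell surface while bound to its receptor, and plasminogen and tissue-type activator dock there on annexin A2 and other receptors. Serpins hold both activators in check by trapping them in inactive complexes, and urokinase and its receptor are well known from the invasion of mammary carcinoma.

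Each value appears, from the numbers themselves, to be the average read coverage over the bases of a gene after scaling for library depth. It is called coverage here, and levels of different genes are set side by side per length on that reading. Sums of coverage ran from 256510 to 390495 in Etv5 shRNA libraries and from 254792 to 308393 in controls, with the highest sum and the fewest genes above 0 (13920) in Etv5 shRNA replicate 3. That library stood apart from the other 7, so results are given with and without it. Values of single libraries are listed from replicate 1 to 4 in each group. Etv5 itself had 13.0, 11.2, 7.52 and 12.7 in Etv5 shRNA libraries, against 15.2, 15.1, 11.7 and 14.4 in controls. The groups overlapped, and a lower level of the targeted transcript was not resolved (log2 fold change -0.33, adjusted p 0.819 by limma). Of 19 other settings, limma called it lower in 1, with array quality weights (log2 fold change -0.19, adjusted p 0.0392). That setting called 1670 of all tested genes lower, against 57 as reported, and its weights stopped short of convergence. The groups are named by their labels alone. All 7 epithelial markers, Epcam and Krt8 among them, passed the filter on low values. The 8 leukocyte markers summed to between 2.93 and 3.33 in Etv5 shRNA libraries and between 2.99 and 4.58 in controls, nearly all of it Cd68, with Cd3e and Adgre1 at 0 and Ptprc at most at 0.0460. The 5 endothelial markers summed to at most 0.125 in any library. The 8 fibroblast markers summed to between 0.641 and 2.59 in Etv5 shRNA libraries and between 2.76 and 3.60 in controls, mostly Pdgfra, while Dcn and Lum were at 0; the part of this in the results below was not tested. In bulk RNA, fewer cells of a kind and less RNA per cell cannot be told apart.

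The inhibitor gene Serpine2 fell in the Etv5 shRNA libraries, and none of the other 4 tested members passed the test. Serpine2 encodes protease nexin-1, a serpin that inhibits urokinase, tissue-type activator, plasmin and thrombin. Its coverage was 20.2, 19.9, 16.8 and 19.3 in Etv5 shRNA libraries, against 47.6, 48.3, 48.3 and 47.9 in controls. Every Etv5 shRNA library lay below every control, by a wide margin, and replicate 3 was the lowest of its group. The mean was 19.0 ± 1.52 in Etv5 shRNA libraries and 48.0 ± 0.303 in controls (SD, n = 4 each), a 2.52-fold lower level with the Etv5 shRNA. The log2 fold change, on log2(coverage + 1), was -1.29 (SE 0.114, 95% interval -1.55 to -1.04), and limma gave an adjusted p of 0.00168. Permuting the libraries over all 70 assignments (exact, two-sided, on coverage) gave p = 0.0286, the smallest possible. Any gene whose groups do not overlap reaches this value, and it was not adjusted for the 6 members so tested. Leaving out replicate 3 gave a mean of 19.8 ± 0.430 (SD, n = 3) and a log2 fold change of -1.24, and limma gave an adjusted p of 2.27e-05.

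**Figure D1:**
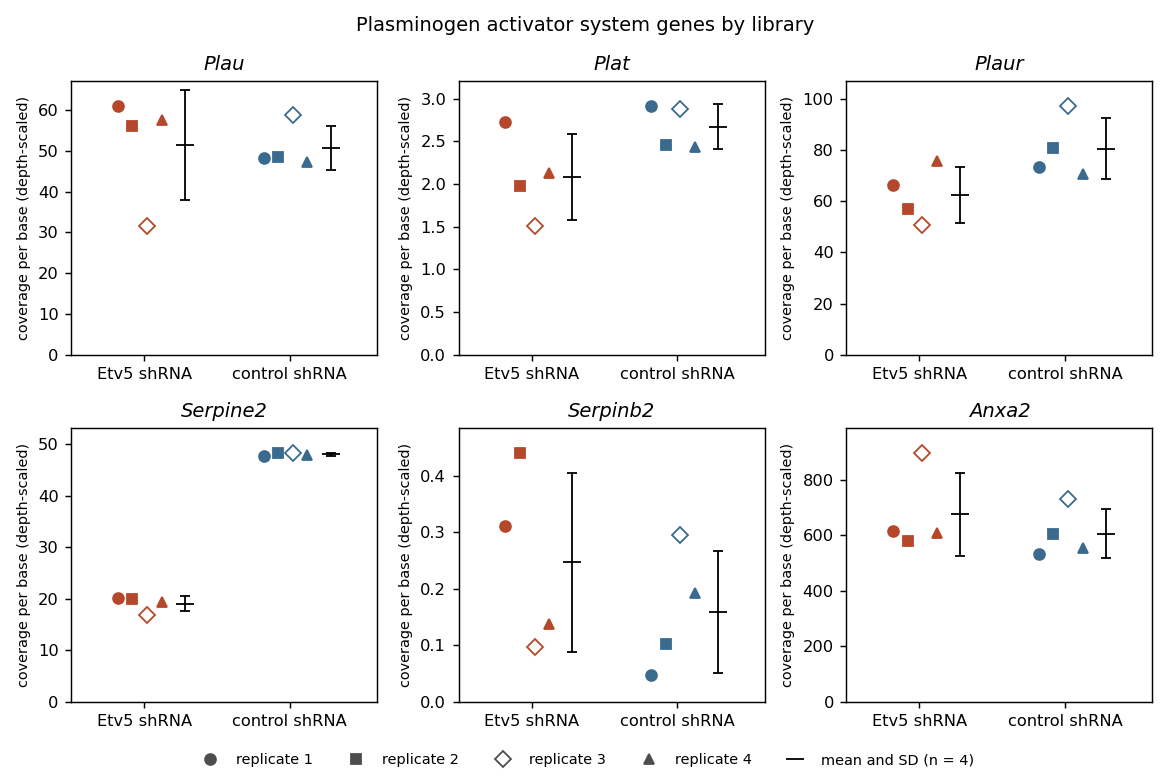
Coverage per base of the 6 genes in each library, Etv5 shRNA to the left of control shRNA, on axes that start at 0; markers give the replicate, open diamonds replicate 3, and bars the mean and SD of 4 libraries. Serpine2 lies at 16.8 to 20.2 in Etv5 shRNA libraries and at 47.6 to 48.3 in controls, while the groups of the other 5 genes overlap.

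Shares over all tested genes are given beside the count among the members. The members were chosen with earlier results of these data known, so this count is no evidence about the list as a set. Of 11731 genes tested, limma called 0.486% lower and 0.00852% higher over 8 libraries, and 1 of the 5 tested members was called lower. Without Etv5 shRNA replicate 3, 2.05% of all genes were called lower and 1.08% higher, and the count among the members was again 1 lower and 0 higher. Coverage of the groups did not overlap for 1 of the 5, in the lower direction, where 7.58% of all tested genes behaved so. The median log2 fold change of the 5 was -0.26, and that of all tested genes -0.11. These medians were -0.17 and 0.00 once Etv5 shRNA replicate 3 was left out. The spread of Serpine2 among controls was small, with a coefficient of variation of 0.630%, and 0.0426% of tested genes had a lower one.

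Serpine2 spans positions 79794197 to 79861180 of chromosome 1 (mm10, minus strand), and its longest coding transcript has 9 exons. Its promoter is shown because it is the member that fell and Etv5 encodes a DNA-binding factor of the ETS family, whose sites share the core GGAA. The promoter of the receptor gene Plaur is set beside it as that of a gene that was not called. Both run from 250 bases before to 50 after the start site, 5′ to 3′ on the strand of the gene, from RefSeq on GRCm38.p6. They lie at chr1:79858616-79858915 on the minus strand for Serpine2 and at chr7:24462233-24462532 on the plus strand for Plaur. The Serpine2 window holds the start of its longest coding transcript. The annotated span of the gene extends further upstream, to 79861180, so other annotated starts may lie outside the window. Capitals mark GGAA on either strand.
Serpine2: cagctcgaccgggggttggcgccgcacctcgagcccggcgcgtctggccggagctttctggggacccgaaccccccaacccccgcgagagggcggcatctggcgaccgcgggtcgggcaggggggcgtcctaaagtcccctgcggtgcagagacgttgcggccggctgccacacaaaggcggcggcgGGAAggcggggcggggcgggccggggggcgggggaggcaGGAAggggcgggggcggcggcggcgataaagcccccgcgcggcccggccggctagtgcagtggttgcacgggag
Plaur: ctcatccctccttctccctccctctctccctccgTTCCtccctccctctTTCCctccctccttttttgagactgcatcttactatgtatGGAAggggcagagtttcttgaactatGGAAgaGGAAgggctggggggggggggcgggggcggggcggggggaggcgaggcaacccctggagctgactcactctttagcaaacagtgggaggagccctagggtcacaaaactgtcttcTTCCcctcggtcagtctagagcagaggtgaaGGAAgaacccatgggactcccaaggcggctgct
Serpine2 held 2 matches to GGAA and Plaur 7, the most among the members with a promoter in the table, while Anxa2 and each of the start sites of Serpinb2 held 3. The core is common, since 96.0% of all 32851 RefSeq promoter windows of this length hold it. The longer CCGGAA, which contains the core, had 0 matches in each of these genes and occurs in 14.9% of windows. The AP-1 site, searched as TGAGTCA or TGACTCA on both strands, was found 0 times in Serpine2 and Serpinb2 and 1 time each in Plaur and Anxa2, against 5.20% of all windows. GGGCGG, the GC box, was found 6 times in Serpine2, 3 times each in Plaur and Anxa2 and 0 times in Serpinb2, against 35.7% of windows. These matches describe the windows and are not evidence of binding.

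Serpinb2, the other serpin gene, was close to silent. It encodes plasminogen activator inhibitor type 2, an inhibitor of both activators, and lies on the same chromosome, from 107511423 to 107535478. Coverage was 0.311, 0.440, 0.0978 and 0.138 in Etv5 shRNA libraries, against 0.0465, 0.102, 0.294 and 0.193 in controls. The groups overlapped widely, and the gene stayed under the filter of 0.5 in at least 4 libraries, so it was the 1 member not tested across genes. The mean was 0.247 ± 0.159 in Etv5 shRNA libraries and 0.159 ± 0.109 in controls (SD, n = 4 each), and the exact permutation test, two-sided, returned p = 0.400. Serpinb10 overlaps the span of the gene on the same strand in the GENCODE annotation but shares no stretch of 50 bases with its coding transcript. Whether reads of Serpinb10 entered this small signal was not tested.

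Of the activator genes, Plau was strongly expressed and Plat weakly, and neither was called. Plau, on chromosome 14 from 20836660 to 20843385, encodes urokinase. Its coverage was 61.1, 56.0, 31.5 and 57.5 in Etv5 shRNA libraries, against 48.3, 48.5, 58.7 and 47.2 in controls. Replicate 3 was the lowest of the first group and replicate 3 the highest of the controls, so the groups overlapped. The mean was 51.5 ± 13.5 in Etv5 shRNA libraries and 50.7 ± 5.39 in controls (SD, n = 4 each), with a log2 fold change of -0.02 (95% interval -0.50 to 0.47, adjusted p 0.982 by limma). Without Etv5 shRNA replicate 3 its mean was 58.2 ± 2.59 (SD, n = 3), and the log2 fold change turned to 0.20 (95% interval -0.02 to 0.42; limma adjusted p 0.310). The sign also turned with median-of-ratios scaling, at 0.16.

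Plat, on chromosome 8 from 22757727 to 22782844, encodes tissue-type plasminogen activator, best known for dissolving fibrin clots. Coverage was 2.73, 1.98, 1.51 and 2.13 in Etv5 shRNA libraries, against 2.92, 2.46, 2.88 and 2.43 in controls. Etv5 shRNA replicates 2, 3 and 4 lay below every control, and replicate 1 lay among them. The mean was 2.09 ± 0.503 in Etv5 shRNA libraries and 2.67 ± 0.263 in controls (SD, n = 4 each), with a log2 fold change of -0.26 (95% interval -0.59 to 0.07, adjusted p 0.819 by limma). Leaving out Etv5 shRNA replicate 3 gave a log2 fold change of -0.17 and an adjusted p of 0.447 by limma.

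The receptor gene Plaur had a lower mean in the Etv5 shRNA libraries, but the difference did not pass the test. Plaur lies on chromosome 7, from 24462484 to 24475968, and encodes the lipid-anchored urokinase receptor. Coverage was 66.4, 56.8, 50.6 and 75.8 in Etv5 shRNA libraries, against 73.6, 81.0, 97.3 and 70.6 in controls. Etv5 shRNA replicates 1, 2 and 3 lay below all controls, and replicate 4 lay inside their range. The mean was 62.4 ± 11.0 in Etv5 shRNA libraries and 80.6 ± 11.96 in controls (SD, n = 4 each), with a log2 fold change of -0.37 (95% interval -0.76 to 0.02, adjusted p 0.724 by limma). The exact permutation test, two-sided, returned p = 0.0857 for Plaur and for Plat, 0.971 for Plau and 0.486 for Anxa2. The log2 fold change was -0.28 without Etv5 shRNA replicate 3, where limma gave an adjusted p of 0.312.

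Anxa2 was the most abundant of the 6. It lies on chromosome 9, from 69453620 to 69491795, and encodes annexin A2, a calcium-dependent membrane binder that, with its partner S100A10, docks plasminogen and tissue-type activator. Coverage was 616, 580, 897 and 608 in Etv5 shRNA libraries, against 533, 606, 730 and 553 in controls. Replicate 3 was the highest of each group, and the groups overlapped. The mean was 675 ± 149 in Etv5 shRNA libraries and 606 ± 88.5 in controls (SD, n = 4 each), with a log2 fold change of 0.14 (95% interval -0.32 to 0.61, adjusted p 0.886 by limma). Without Etv5 shRNA replicate 3 the mean was 601 ± 18.9 (SD, n = 3), against 606 in controls, and the 95% interval ran from -0.32 to 0.32 on the log2 scale. Its antisense neighbour Gm16144 overlaps it; strand is not given in the sources used here, so reads of the pair cannot be told apart.

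**Figure D2:**
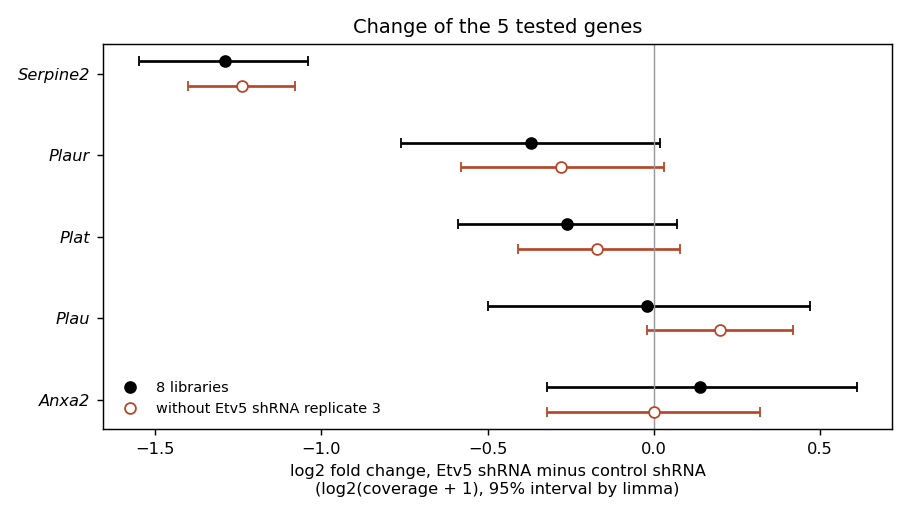
Log2 fold change of the 5 tested genes, Etv5 shRNA minus control shRNA on log2(coverage + 1), with 95% intervals by limma over 8 libraries (filled) and without Etv5 shRNA replicate 3 (open). The interval of Serpine2 runs from -1.55 to -1.04 over 8 libraries, and the intervals of the other 4 include 0.

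The deviant library did not move the 6 genes alike. Relative to the mean of the other 3 Etv5 shRNA libraries, replicate 3 had 0.850 times the coverage of Serpine2, 0.763 of Plaur, 0.661 of Plat, 0.542 of Plau and 0.330 of Serpinb2. For Anxa2 the ratio was 1.49. Coding transcripts were 1447 bases for Anxa2, 1506 for Plaur, 1996 for Serpinb2, 2210 for Serpine2, 2342 for Plau and 2525 for Plat. Among other genes, the ratio was 2.79 for S100a10 (685 bases) and 1.82 for Plgrkt (1020 bases). It was 0.963 for Itgb5 (3282 bases), 0.508 for Mmp9 (3175 bases) and 0.296 for Lrp1 (14888 bases). For Mmp3 (1801 bases) it was 0.984, for Mmp13 (2673 bases) 0.514 and for Etv5 (3975 bases) 0.610. Among these genes, replicate 3 was above the mean of the others for transcripts of up to 1447 bases and below it for all longer ones. The ratios of the longer transcripts did not fall steadily with length, and the part of length was not tested. Control replicate 3 held 1.22 times the mean of the other controls for Plau, 1.30 for Plaur, 1.29 for Anxa2 and 1.01 for Serpine2. None of the 6 shared a stretch of 50 bases of its coding transcript with another annotated gene.

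The order of levels was the same in 7 of the 8 libraries, with Anxa2 highest, then Plaur, Plau, Serpine2, Plat and Serpinb2. In control replicate 4, Serpine2 stood above Plau. In Etv5 shRNA libraries Plau (31.5 to 61.1) and Serpine2 (16.8 to 20.2) did not overlap, whereas in controls Plau (47.2 to 58.7) and Serpine2 (47.6 to 48.3) did. Plaur and Plau overlapped in Etv5 shRNA libraries and not in controls.

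Coverage of the activator genes was also set against that of Serpine2 in the same library. A ratio within a library is free of that library's scaling factor, and these ratios are given as values with no test. Plau over Serpine2 was 3.03, 2.82, 1.87 and 2.98 in Etv5 shRNA libraries, against 1.01, 1.00, 1.22 and 0.984 in controls. Every Etv5 shRNA library was above every control, with replicate 3 the lowest of its group. The mean was 2.67 ± 0.540 in Etv5 shRNA libraries and 1.06 ± 0.108 in controls (SD, n = 4 each), and 2.94 ± 0.109 (SD, n = 3) in Etv5 shRNA libraries without replicate 3.

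Plat over Serpine2 was 0.109 ± 0.0196 in Etv5 shRNA libraries and 0.0556 ± 0.00561 in controls (SD, n = 4 each), again without overlap. Its range was 0.0896 to 0.135 in Etv5 shRNA libraries and 0.0507 to 0.0612 in controls. Coverage of Serpine2 alone did not overlap between groups, and neither Plau nor Plat was called. The gaps in both ratios therefore restate the lower Serpine2 and are no separate result. The ratios that leave Serpine2 out overlapped between groups. Plau over Plaur was 0.920, 0.986, 0.624 and 0.759 in Etv5 shRNA libraries, against 0.657, 0.599, 0.603 and 0.669 in controls, and replicate 3 was the overlapping library. Anxa2 over S100a10 was 1.50 ± 0.407 in Etv5 shRNA libraries and 1.63 ± 0.183 in controls (SD, n = 4 each), and 1.69 ± 0.118 (SD, n = 3) without Etv5 shRNA replicate 3.

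**Figure D3:**
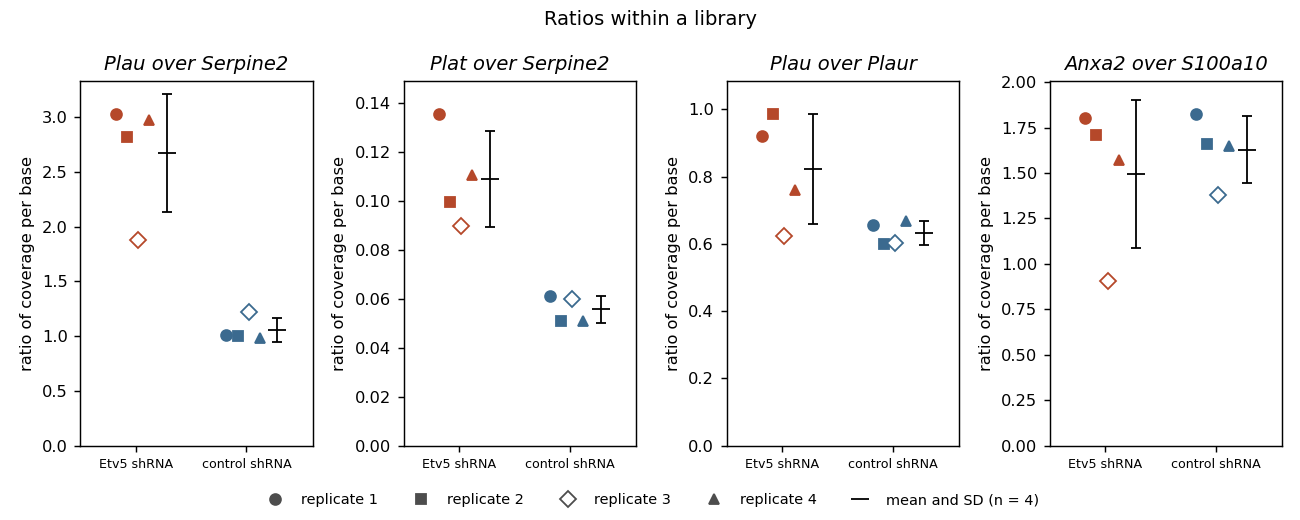
Ratios of coverage per base within each library, Etv5 shRNA to the left of control shRNA, on axes that start at 0; markers give the replicate and bars the mean and SD of 4 libraries. Plau over Serpine2 spans 1.87 to 3.03 in Etv5 shRNA libraries and 0.984 to 1.22 in controls, and Anxa2 over S100a10 overlaps.

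A list of 76 other genes of the system was examined, and those called over 8 libraries were matrix protease genes. Of 44 genes that passed the filter, 2 were called lower, none higher and 42 not called. Of all tested genes, 0.486% were called lower and 0.00852% higher. The median log2 fold change of the 44 was -0.16. Once Etv5 shRNA replicate 3 was left out, 4 were lower, none higher and 40 not called, with a median of -0.02. In that fit 2.05% of all tested genes were called lower and 1.08% higher. At an unadjusted p under 0.05 limma had 4 of the 44 lower and 0 higher over 8 libraries, where 5.98% of all tested genes were lower and 1.11% higher. Without that library it had 5 lower and 5 higher, against 10.5% and 8.38% of all tested genes. These unadjusted counts lay near the background. Among 11 tested genes of proteolysis and its targets, the stromelysin gene Mmp3 and the collagenase gene Mmp13 fell, whose latent proteins plasmin can activate. Mmp3 held 82.3, 78.9, 78.2 and 77.3 in Etv5 shRNA libraries, against 145, 155, 186 and 149 in controls. The groups were apart, with a log2 fold change of -0.99 and an adjusted p of 0.0124 by limma. Median-of-ratios scaling ended that call (log2 fold change -0.81, adjusted p 0.184 by limma). So did leaving out any 1 library other than the replicate 3 of either group, at log2 fold changes of -1.03 to -0.98 (limma adjusted p 0.0556 to 0.0820).

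Mmp13 held 1.23, 1.23, 0.614 and 1.13 in Etv5 shRNA libraries, against 6.58, 5.54, 6.39 and 5.80 in controls. Mean coverage was 5.80-fold lower with the Etv5 shRNA. The log2 fold change on log2(coverage + 1), which understates changes at such low levels, was -1.80 (adjusted p 0.000956 by limma), and -2.47 with a pseudocount of 0.1. The gelatinase gene Mmp9 held 84.4, 75.1, 40.9 and 81.7 in Etv5 shRNA libraries, against 127, 117, 106 and 123 in controls. Every Etv5 shRNA library lay below every control. Over 8 libraries the log2 fold change was -0.79 and not called (adjusted p 0.375 by limma), and without Etv5 shRNA replicate 3 it was -0.55 and called lower (adjusted p 0.0185 by limma). With the length trend removed it was called lower over 8 libraries too (log2 fold change -0.65, adjusted p 0.0481 by limma), as it was with array quality weights (-0.53, adjusted p 9.43e-05 by limma). In that order, these settings called 112 and 1670 of all tested genes lower, against 57 as reported. Mmp14, another tested matrix protease gene, averaged 63.2 in Etv5 shRNA libraries and 47.2 in controls. Its log2 fold change was 0.37 (adjusted p 0.814 by limma), and 0.16 without Etv5 shRNA replicate 3, and it was not called. St14, which encodes matriptase, an activator of pro-urokinase, averaged 44.0 in Etv5 shRNA libraries and 44.6 in controls and was not called. Plasminogen itself was not measurable: Plg is listed at 0 in all 8 libraries, and so are the coagulation protease genes F7 and Klkb1.

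None of the 9 tested inhibitor genes was called over 8 libraries or without Etv5 shRNA replicate 3, and their median log2 fold change over 8 libraries was 0.00. At an unadjusted p under 0.05 by limma there were 0 over 8 libraries, where 5.98% of all tested genes were lower and 1.11% higher. Without Etv5 shRNA replicate 3 there was 1, higher, where 8.38% of all tested genes were. Their log2 fold changes ran from -0.16 for Spint1, a matriptase inhibitor gene, to 0.46 for Timp1, a metalloprotease inhibitor gene. Without Etv5 shRNA replicate 3 Timp1 was at 0.10, and the range ran from -0.27 for Spint2 to 0.31 for Serpinb5. The plasmin inhibitor gene Serpinf2 reached at most 0.0661 and was not tested.

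Among receptors, co-receptors and clearance genes, 24 of 28 were tested and none was called by limma over 8 libraries. At an unadjusted p under 0.05 by limma 1 was lower and 0 higher, against 5.98% and 1.11% of all tested genes. Without Etv5 shRNA replicate 3, 1 was lower and 3 higher at that unadjusted threshold, against 10.5% and 8.38% of all tested genes. S100a10, the partner of annexin A2, held 341, 340, 993 and 387 in Etv5 shRNA libraries, against 292, 365, 529 and 336 in controls. The groups overlapped, with replicate 3 highest in both, and the log2 fold change of 0.31 (adjusted p 0.879 by limma) became -0.06 without Etv5 shRNA replicate 3. The plasminogen receptor gene Plgrkt held 9.90, 10.8, 18.1 and 9.23 in Etv5 shRNA libraries, against 10.3, 9.99, 13.1 and 9.11 in controls, and was not called (adjusted p 0.893 by limma). Lrp1, which encodes the endocytic receptor that clears activator and serpin complexes, held 21.9, 19.5, 6.30 and 22.6 in Etv5 shRNA libraries, against 37.0, 27.1, 16.6 and 32.8 in controls. Its groups overlapped, and the log2 fold change was -0.74 (adjusted p 0.814 by limma), and -0.34 without Etv5 shRNA replicate 3 (adjusted p 0.446 by limma). It was called lower by limma with array quality weights (adjusted p 0.00706) and, without Etv5 shRNA replicate 3, with the trend over transcript length removed (adjusted p 0.0213) and with length and GC trends removed (adjusted p 0.0127). In that order, these settings called 1670, 558 and 729 of all tested genes lower, against 57 as reported. Without Etv5 shRNA replicate 3 the integrin gene Itgb5 was called lower (adjusted p 0.0388 by limma). Its coverage was 30.7 ± 2.61 (SD, n = 3) with the Etv5 shRNA and 40.9 ± 1.73 (SD, n = 4) in controls.

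**Figure D4:**
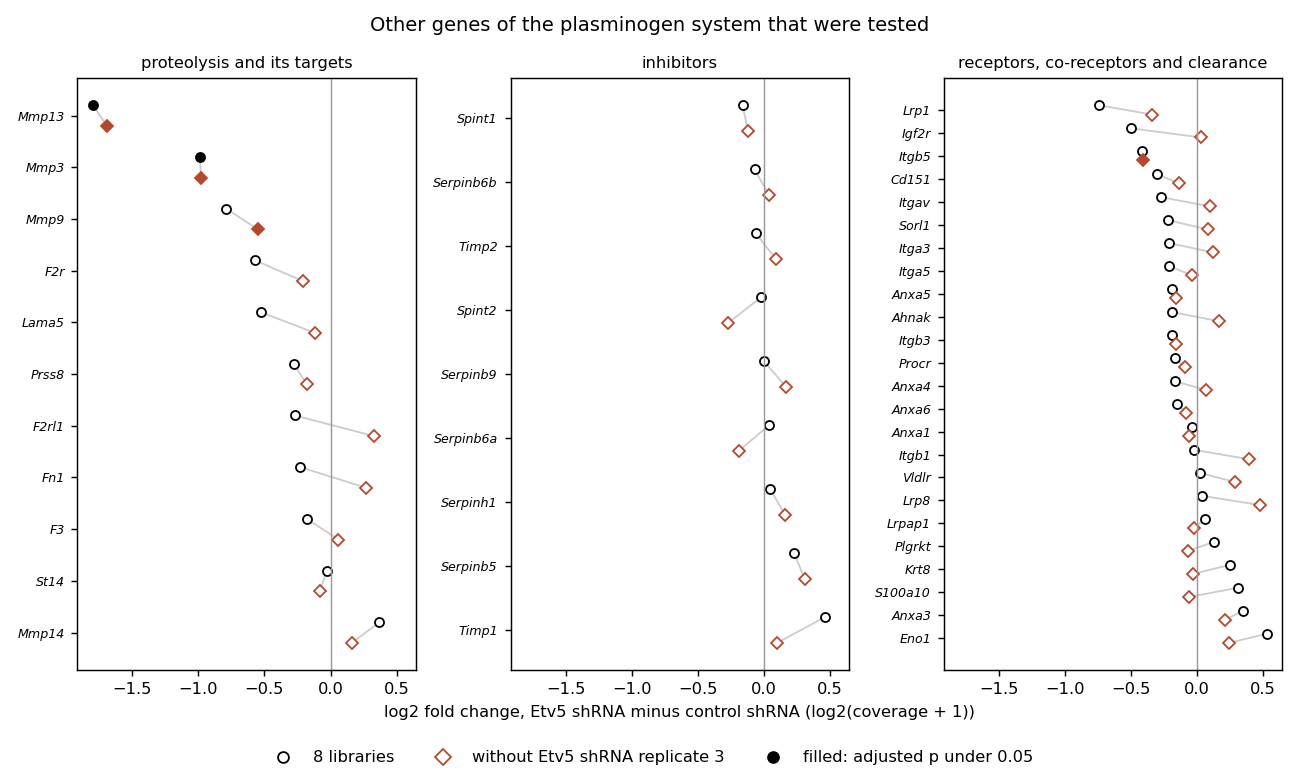
Log2 fold change, Etv5 shRNA minus control shRNA on log2(coverage + 1), of the 44 other tested genes of the system in 3 lists; circles are over 8 libraries, diamonds without Etv5 shRNA replicate 3, and filled symbols have an adjusted p under 0.05 by limma. Mmp13 and Mmp3 are filled in both fits, at -1.80 and -0.99 over 8 libraries, and no inhibitor is filled.

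Genes with the profile most like that of each member were sought over the 8 libraries, among 7384 genes with a mean coverage of at least 5. Likeness was the root mean square difference of log2(coverage + 1) after each gene was centred on its own mean, and a small value means a like profile. Nearest to Serpine2 were Ptges, a prostaglandin E synthase gene, at 0.152, then the NF-kB inhibitor gene Nfkbia at 0.180 and the kinase gene Ikbke at 0.189. All 3 were called lower by limma, with log2 fold changes of -1.30, -1.37 and -1.04 (adjusted p 0.00675, 0.0183 and 0.00729). Ptges held 2.84 ± 0.467 in Etv5 shRNA libraries and 8.46 ± 1.20 in controls (SD, n = 4 each). Closer matches existed for the other members, none of them called. They were Idh1 for Plau (0.0574), Zbtb45 for Plaur (0.0851), Lman2l for Plat (0.0639) and Glo1 for Anxa2 (0.0294). The libraries of a group share their construct and replicate 3 its deviation, so these distances only describe the profiles. A gene picked for a like profile has a like fold change by that choice. The calls of these neighbours, or their lack, are therefore no separate result.

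Across 19 other settings of scaling, filter, pseudocount, design and libraries, Serpine2 was called lower each time, with log2 fold changes from -1.38 to -1.12. Plaur had a negative fold change in each and was never called. Plau, Plat and Anxa2 had fold changes of both signs, and of these Plau alone was called, higher, with array quality weights. That setting called 1513 of all tested genes higher.

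**Figure D5:**
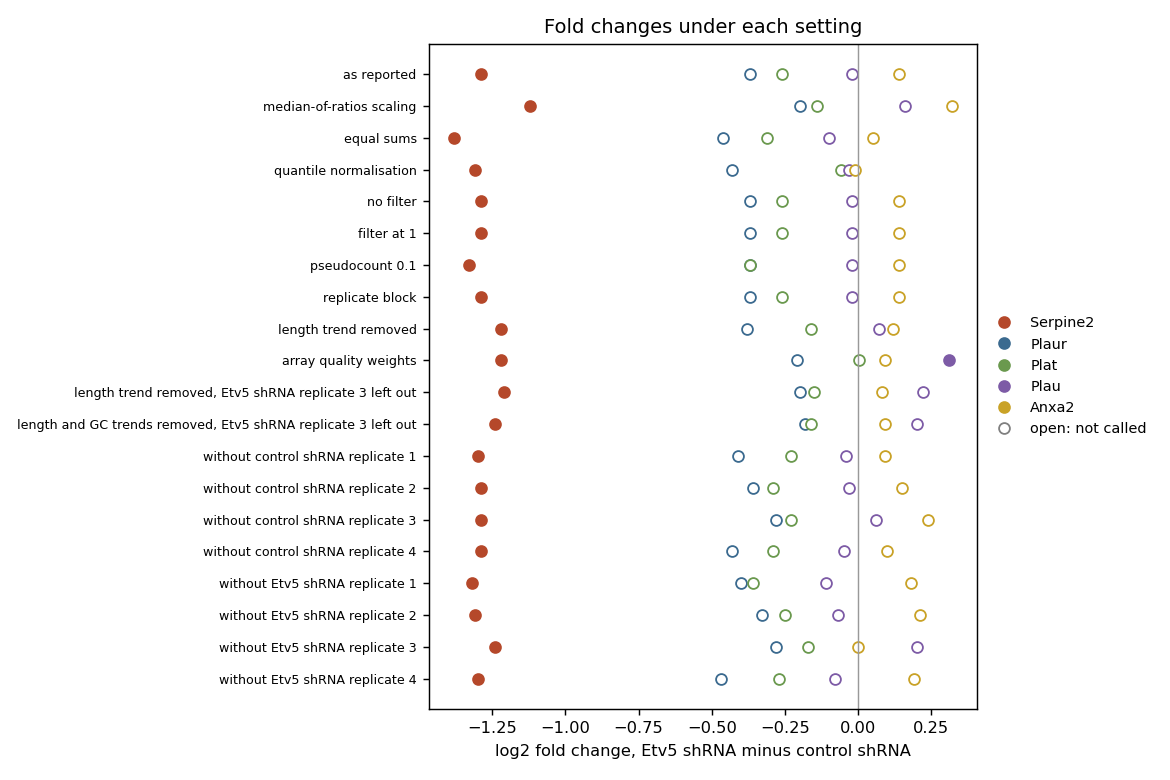
Log2 fold change of the 5 tested genes under each processing setting and with each library left out, Etv5 shRNA minus control shRNA; filled circles have an adjusted p under 0.05 by limma. Serpine2 lies between -1.38 and -1.12 and is filled in every row, and Plau, Plat and Anxa2 lie on both sides of 0.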

How the data were processed

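RNA of cultured 4T1 cells was measured in 8 libraries made with a TruSeq RNA kit and sequenced on a NovaSeq instrument, per the labels' protocols. Reads were aligned with STAR 2.7.10a to mm10, per the submitters' processing notes. The deposited table holds a coverage signal, taken from bedGraph tracks per the file headers, which the authors appear to have scaled to depth and averaged per gene. That reading rests on the values, whose products with transcript length add up to 663.6 to 702.3 megabases in each library. Neither the averaging program nor its gene models is given in the sources used here. Reads could not be counted, so depth is unknown and intervals for counting error are left out.

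Groups and replicate numbers came from sample titles, and columns were matched by library name. A gene was tested where 4 or more libraries reached a value of 0.5. The test was limma 3.58.1 (R 4.3.3) on log2(value + 1), with a prior that follows intensity, no covariate and Benjamini-Hochberg adjustment over all genes tested; adjusted p under 0.05 was a call. Each of the 6 members also had an exact permutation test. The test was tried on simulated data with independent noise in each gene and library. Those data held no deviant library, so the trial does not show how the test behaves with Etv5 shRNA replicate 3. Coordinates, coding transcripts and overlaps came from GENCODE release M21, and promoters from RefSeq GRCm38.p6, which held 4 of the 6 members (not Plau or Plat).

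The members, lists and settings were chosen with earlier results of these data known. Named genes were the members, other listed genes called over 8 libraries or without Etv5 shRNA replicate 3, S100a10, Plg, Lrp1, Plgrkt, Etv5 and the 3 genes nearest each member; 3 listed genes are not reported here, and further genes are named as examples of list ranges, chosen after their values were seen. Settings tried were 3 scalings, 2 filters, a pseudocount of 0.1, the replicate block, array quality weights, removal of trends with transcript length (lowess, span 0.3), and each library left out; the joint removal of length and GC trends was added after the data were seen.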

Additional observations from a re-analysis of the deposited data

Results flagged for a closer look

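The members, Etv5 and the named genes of the pathway lists, 14 with values above 0, were screened in both groups for a single distant library. Genes named only for a like profile were not screened. The measure was its gap to the nearest library over the range of the group, held against Dixon's 95% critical value. Of 28 groups 5 passed, where chance gives about 1 in 20, or 1.4. That rate assumes no deviant library, and Etv5 shRNA replicate 3 stood apart in its sum of coverage and its genes above 0. The share over all tested genes was not computed, so the count is not read as a trait of these genes. In 4 of the 5 groups the library was Etv5 shRNA replicate 3. Plau was the lowest of its group there, at 31.5 (its ratio was just past the critical value). Anxa2 and S100a10 were the highest, at 897 (ratio 0.886) and 993 (ratio 0.928). Mmp13 was the lowest at 0.614 (ratio 0.831). In the controls, Plau was highest in replicate 3, at 58.7 (ratio 0.885). Serpine2, Plaur, Plat and Serpinb2 had no such library in either group.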

How the results depend on the processing

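Serpine2 was called lower under all 19 alternatives, with log2 fold changes from -1.38 to -1.12 and adjusted p from 4.31e-09 to 0.0296 by limma. Plaur kept its direction (-0.47 to -0.18) and was never called. Plat, not called in any, was at 0.00241 with array quality weights, and Anxa2 at -0.01 with quantile normalisation. Plau turned positive with median-of-ratios scaling (0.16), the length trend removed (0.07), array quality weights (0.31, called at an adjusted p of 0.00234 by limma), the length trend removed without Etv5 shRNA replicate 3 (0.22) and length and GC trends removed without it (0.20); leaving out single libraries gave -0.11 to 0.20. S100a10 ranged from -0.06 to 0.48 and Plgrkt from -0.07 to 0.23 without single libraries, and Plgrkt was at -0.00437 with array quality weights. Over all genes the median log2 fold change came to -0.11 as reported, 0.02 with median-of-ratios scaling and -0.18 with equal sums. The array quality weights stopped short of convergence.

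Of all genes, 57 were lower and 1 higher as reported. A pseudocount of 0.1 gave 37 and 0, equal sums 0 higher, median-of-ratios scaling 7 higher, quantile normalisation 8 higher and no filter 3 higher. The length trend removed gave 112 lower and 27 higher, without Etv5 shRNA replicate 3 as well 558 and 472, with GC also removed 729 and 705, and array quality weights 1670 and 1513. Leaving out single libraries gave 28 to 241 lower and 0 to 127 higher, the highest of each without Etv5 shRNA replicate 3. Among the 6 members 1 was lower in every setting and 1 higher with array quality weights alone. Of the other listed genes 2 were lower and 0 higher as reported; median-of-ratios scaling gave 1 lower, array quality weights 7 and 9, the length trend removed without Etv5 shRNA replicate 3 gave 5 and 1, and with GC 6 and 3. Leaving out single libraries gave 1 to 4 lower and 0 higher. For the counts the cause was not tested. With the replicate number as a block, 50 genes were lower and 1 higher, and Serpine2 had an adjusted p of 0.0105 by limma. Correlations of same-numbered libraries' deviations were 0.549, 0.0924, 0.794 and 0.510, and not every library correlated best with its own number, so the numbers were not taken to pair the libraries. The highest of all pairings was 0.794, between both replicate 3 libraries, and whether these share an origin was not tested.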
